A study of Mus musculus with 4 samples.

Results

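A set of 10 genes of the choroid plexus epithelium was followed through 4 mouse tumours by polyA RNA sequencing. The 10 genes were Ttr, Folr1, Kl, Aqp1, Clic6, Slc4a5, Cldn2, Enpp2, Sostdc1 and 1500015O10Rik, out of 46946 genes in the count table, and each was matched by its symbol to 1 gene identifier. The set was chosen by levels already seen in these same tumours, where Ttr stood out in 1 of them. The levels of the 10 genes below are therefore a description, and no p-value is given for them. Where a screen across many genes takes them in, the outcome is stated and nothing is read from it.

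Per the labels, all 4 tumours were untreated, carried the K27M genotype and arose from neural stem cells with PDGF. In K27M a methionine stands in place of a histone H3 lysine that is normally methylated. The series text speaks of injected glioma cells with mutant histone H3.3 instead, and the sources used here do not settle which description holds. The 4 columns of the count table, T10, T14, T8 and TUN, form a single group, and no normal brain or other genotype was analysed here. No label ties a column to a mouse age, strain or dissection, or says that the tumours came from separate animals, so any p-value below measures only the spread between these samples. The libraries held 21664889 to 24369339 counts, and 3 counts corresponded to 0.122 to 0.134 CPM, in which counts are scaled to equal library totals with TMM factors for composition.

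The choroid plexus is a fringe of tissue inside the brain ventricles. A single layer of epithelial cells around leaky capillaries secretes the cerebrospinal fluid and forms the barrier between it and the blood. The epithelium is known for transthyretin, which makes up much of its secreted protein, for folate uptake into the fluid, and for the channels and transporters that move ions and water. The epithelial cells share an origin with the ependyma, the ciliated lining of the ventricles.

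All 10 genes were highest in T10. The median of the 10, as log2 CPM centred on each gene's own 4-tumour mean, was 2.04 in T10, while T14 had -0.28, T8 -0.43 and TUN -1.38. Over the 6 genes that passed the low-count filter of the fit described below, it was 1.43 in T10 and -0.32 in TUN, which then lay above T8. The same median over the 15035 genes that reached 1 CPM in some tumour lay between -0.03 and 0.02 in each tumour. T10 was the highest tumour for 22% of those 15035 genes. In 8 of the 10 genes T10 was at least 2-fold above every other tumour, a difference seen in 2.23% of the 15035 genes. Since the genes were chosen with their T10 level known, nothing is read from these counts. Folr1 and Cldn2 reached 1 CPM in T10 alone. Among genes at 1 CPM or more in a tumour other than T10, 6 of 8 of the set and 1.16% of 14747 genes were at least 2-fold higher in T10.

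**Figure D1:**
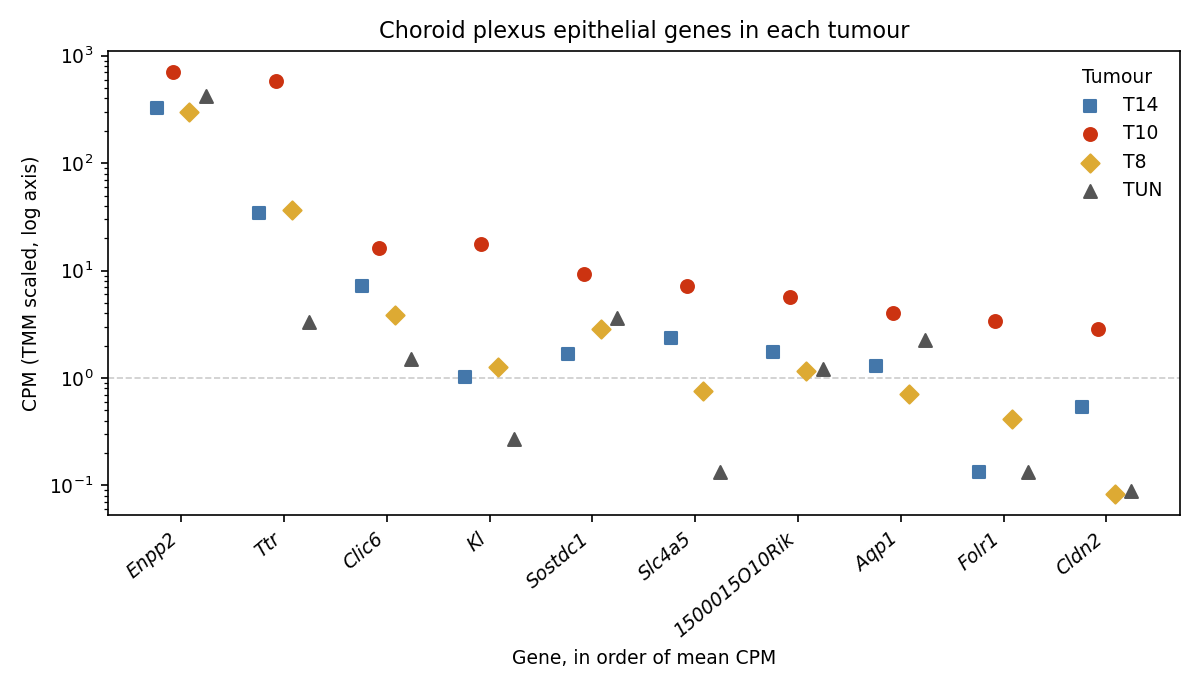
Each point is the level of 1 gene in 1 tumour, as CPM on a log axis, with genes in order of mean CPM and a dashed line at 1 CPM. T10 is the highest point for all 10 genes, and the other 3 tumours change order from gene to gene.

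Carriers of hormones and vitamins are given first. Ttr (ENSMUSG00000061808.3), which encodes the carrier of thyroxine and of the retinol-binding protein, reached 579 CPM in T10, while T14 had 34, T8 36.9 and TUN 3.35. T10 thus lay far above T14 and T8, which were alike, and TUN lay below all. The ratio of T10 to the next highest tumour was 15.7, with a 95% counting interval of 14.6 to 16.8, and the ratio of T10 to TUN was 173 (138 to 220). These intervals, here and below, are exact binomial intervals from the counts of 2 libraries. They cover counting error only and say nothing of the spread between tumours. Per length, Ttr had the highest mean of the 10 genes, at 134 ± 228 RPKM (SD, n = 4; RPKM is CPM per kilobase of exon), a mean set by T10 at 475 RPKM. Its gene lies on chromosome 18, 20665250 to 20674324 on the plus strand (mm10), and shares 11 exon bases with the antisense gene Gm16090, which had 0 counts in every library.

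Folr1 (ENSMUSG00000001827.11, chromosome 7, 101858331 to 101870788), the folate receptor that carries folate across the epithelium, was near the detection floor outside T10. T10 held 83 counts (3.38 CPM), T8 held 10 (0.419 CPM), and T14 and TUN held 3 each (0.133 and 0.134 CPM). T10 exceeded T8 by 8.06-fold (4.17 to 17.4) and T14 by 25.4-fold, where the 3 counts leave an interval of 8.39 to 126. The other folate receptor gene of the table, Folr2, which is known from macrophages, ran otherwise, at 0.577, 0.692, 2.56 and 5 CPM in T14, T10, T8 and TUN. Per length, Folr2 stood at 2.04 ± 1.92 RPKM and Folr1 at 0.442 ± 0.688 RPKM (n = 4). In RPKM, Folr1 was above Folr2 in T10 alone.

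The hormone and growth factor genes of the set followed. Kl (ENSMUSG00000058488.7, chromosome 5, 150952607 to 150993817) encodes klotho, the co-receptor for the hormone FGF23. It reached 17.6 CPM in T10 from 433 counts, against 1.02 CPM in T14 (23 counts), 1.26 in T8 (30) and 0.268 in TUN (6). As for Ttr, T14 and T8 were close, T10 was far above them and TUN was lowest. T10 was 14-fold above T8 (9.68 to 21) and 17.3-fold above T14 (11.4 to 27.5).

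Sostdc1 (ENSMUSG00000036169.5, chromosome 12, 36314169 to 36318452), a secreted antagonist of BMP and Wnt signals, reached 9.32 CPM in T10, while T14 had 1.69, T8 2.85 and TUN 3.62. Here T14 was lowest and TUN came second. T10 exceeded TUN by 2.58-fold (1.99 to 3.36). Its relative Sost was low throughout, at 0.542 ± 0.333 CPM (n = 4), with its highest value in T14.

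Enpp2 (ENSMUSG00000022425.15, chromosome 15, 54838898 to 54920146) encodes autotaxin, the secreted enzyme that makes lysophosphatidic acid. It reached 708 CPM in T10, while T14 had 327, T8 300 and TUN 426. No tumour was low in it, and the ratio of T10 to the next highest tumour, TUN, was the smallest of the set at 1.66 (1.62 to 1.70). Autotaxin is known from oligodendrocyte lineage cells as well as from choroid plexus. Bulk counts cannot tell fewer cells of a type from less RNA per cell. 1500015O10Rik (ENSMUSG00000026051.8, chromosome 1, 43730602 to 43742578), also called Ecrg4 and encoding a secreted peptide precursor, stood at 1.73, 5.70, 1.17 and 1.21 CPM in T14, T10, T8 and TUN. T14, T8 and TUN lay close together there, and T10 was 3.29-fold above T14 (2.29 to 4.82).

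The genes for water, ion and junction proteins closed the set. Aqp1 (ENSMUSG00000004655.5, chromosome 6, 55336432 to 55348555), the water channel of the ventricular face of the epithelium, reached 4.07 CPM in T10, while T14 had 1.29, T8 0.712 and TUN 2.28. TUN came second here, and T10 exceeded it by 1.79-fold (1.26 to 2.56). Clic6 (ENSMUSG00000022949.9, chromosome 16, 92485736 to 92541243), of the chloride intracellular channel family, fell in steps from 16.3 CPM in T10 to 7.19 in T14, 3.90 in T8 and 1.52 in TUN. The ratio of T10 to T14 was 2.27 (1.89 to 2.74) and that of T10 to TUN 10.8 (7.57 to 15.7).

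Slc4a5 (ENSMUSG00000068323.12, chromosome 6, 83219828 to 83304945), a sodium bicarbonate cotransporter, had the same order as Clic6, at 7.16 CPM in T10, 2.35 in T14, 0.754 in T8 and 0.134 in TUN. The value in TUN rests on 3 counts. T10 exceeded T14 by 3.05-fold (2.23 to 4.22). Cldn2 (ENSMUSG00000047230.6, chromosome X, 139800828 to 139811386), the claudin of leaky, water-permeable tight junctions, had 70 counts in T10 (2.85 CPM), 12 in T14 (0.533 CPM) and 2 in each of T8 and TUN (0.0838 and 0.0893 CPM). T10 was 5.35-fold above T14 (2.88 to 10.8), while against T8 the ratio of 34 has an interval of 9.07 to 286.

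**Figure D2:**
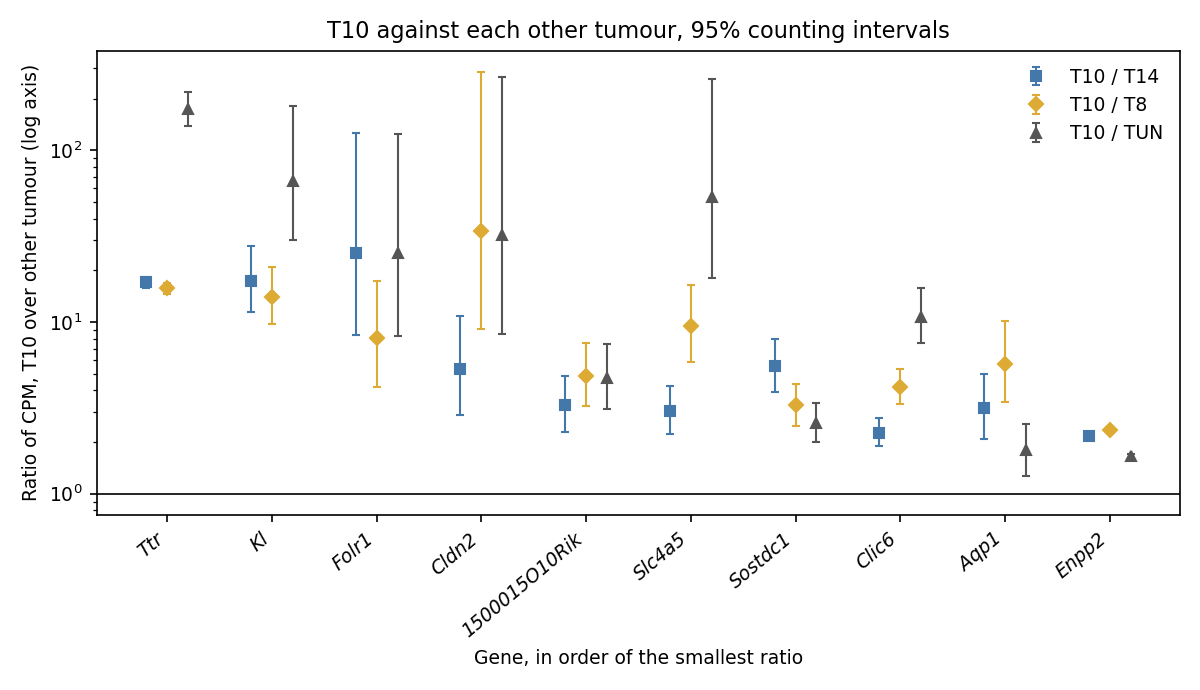
Each point is the CPM in T10 divided by the CPM in 1 other tumour, on a log axis, with its 95% counting interval, and the line marks a ratio of 1. The ratio to the nearest tumour runs from 1.66 for Enpp2 to 15.7 for Ttr, and the widest intervals belong to Folr1, Cldn2 and Slc4a5, whose other tumours hold few counts.

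The start regions of 3 genes that differed in the size of the T10 difference are shown, to let the letters of a steep, a middle and a shallow gene be compared. They come from RefSeq (GRCm38.p6) and run from 250 bases before to 50 bases after the annotated start, on the plus strand. Kl lies at chr5:150952357-150952656, Cldn2 at chrX:139800558-139800857 and Aqp1 at chr6:55336049-55336348. Capitals mark a match to any of 3 motifs on either strand.
Kl: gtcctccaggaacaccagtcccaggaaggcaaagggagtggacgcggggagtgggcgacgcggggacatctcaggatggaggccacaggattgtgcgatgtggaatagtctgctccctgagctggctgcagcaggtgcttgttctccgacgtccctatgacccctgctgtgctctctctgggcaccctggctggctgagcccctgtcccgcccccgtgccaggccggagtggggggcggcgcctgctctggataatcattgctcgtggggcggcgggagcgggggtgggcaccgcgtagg
Cldn2: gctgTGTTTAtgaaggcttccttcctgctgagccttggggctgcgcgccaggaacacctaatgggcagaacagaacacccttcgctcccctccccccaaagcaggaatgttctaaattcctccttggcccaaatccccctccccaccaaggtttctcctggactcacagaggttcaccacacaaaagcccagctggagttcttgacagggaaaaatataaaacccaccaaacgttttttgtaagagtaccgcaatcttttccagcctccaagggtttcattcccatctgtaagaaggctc
Aqp1: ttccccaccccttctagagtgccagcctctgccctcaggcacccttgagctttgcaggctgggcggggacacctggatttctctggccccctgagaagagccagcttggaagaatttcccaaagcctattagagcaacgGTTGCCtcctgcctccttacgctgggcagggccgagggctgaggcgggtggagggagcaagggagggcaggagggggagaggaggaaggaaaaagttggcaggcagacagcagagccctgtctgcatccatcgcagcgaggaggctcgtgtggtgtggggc
The motifs were TAATCC, the core bound by OTX2 and related homeodomain factors, then GTTGCC, part of the site of the RFX factors of cilia genes, and then TGTTTA, a forkhead core. No motif overlaps another in these windows. In Cldn2 the forkhead core begins 246 bases before the start, in Aqp1 the RFX motif begins 111 bases before it, and the Kl window holds none of them.

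A start region was matched for 5 of the 10 genes, the other two being those of Slc4a5 and 1500015O10Rik. Those of Ttr, Folr1, Clic6, Enpp2 and Sostdc1 were not used here. The OTX2 core was found in 0 of the 5 windows, against 7.06% of all 32851 windows of 300 bases. The RFX motif and the forkhead core were each found in 1 of 5, against 12.5% and 13.4% of all windows. An E-box, spelled CANNTG, was present in 4 of 5 and in 72.3% of all windows. With 5 windows these matches only describe the letters, and a missing match says nothing about the factor. GC content ran from 50% in 1500015O10Rik to 67.3% in Kl, with a median of 52.7% over all windows.

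The 10 genes did not keep fixed proportions from tumour to tumour. The second highest tumour was T14 for 4 genes (Clic6, Slc4a5, Cldn2 and 1500015O10Rik), T8 for 3 (Ttr, Folr1 and Kl) and TUN for 3 (Aqp1, Enpp2 and Sostdc1). The lowest tumour was TUN for 4 genes, T8 for 4 and T14 for 2. Per length, Ttr made up 67.7% of the summed RPKM of the 10 genes in T10, 21.8% in T14, 25% in T8 and 2.11% in TUN. Enpp2 made up 29.1%, 73.6%, 71.2% and 94.2% in the same order of tumours.

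Kl followed Ttr most closely. The log2 ratio of their RPKM, Kl over Ttr, was -7.97 in T10, while T14 had -7.99, T8 -7.81 and TUN -6.58, where Kl had 6 counts. Over the 45 pairs of the 10 genes, the range of this log2 ratio across tumours was narrowest for Aqp1 with Enpp2 (1.27), then Enpp2 with Sostdc1 (1.35), then Ttr with Kl (1.41). It was widest for Ttr with Enpp2 (6.70), Ttr with Aqp1 (6.60) and Ttr with Sostdc1 (6.07). Genes that varied little between tumours give narrow ranges with each other, and these ranges share 4 libraries, so they are given with no test.

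**Figure D3:**
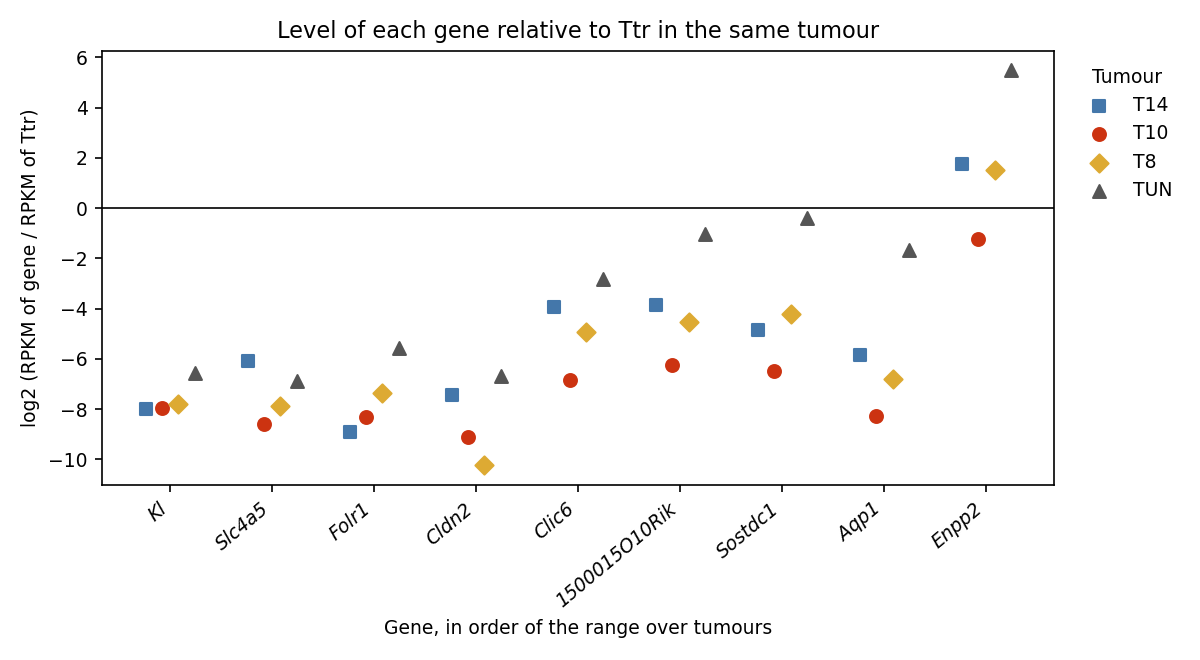
Each point is the log2 ratio of a gene's RPKM to that of Ttr in the same tumour, with genes in order of the range over tumours. Kl lies within 1.41 log2 units in all 4 tumours, while Enpp2 runs from -1.22 in T10 to 5.48 in TUN.

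Variation between tumours was tested over all genes with an intercept-only edgeR model, in which a gene is called when it varies more than genes of like abundance (goodness of fit, adjusted p under 0.05 by Benjamini-Hochberg). It called 4.34% of 14266 genes. Of the 10 genes, 6 had enough counts in all 4 tumours to be tested, and 1 of these, Ttr, was called. Folr1, Kl, Slc4a5 and Cldn2 were not tested because of their low counts. Without the low-count filter, or without TUN, Kl was called beside Ttr. The choice of the 10 genes used the same values, so nothing is read from this count.

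Another 51 genes known from choroid plexus, none of them in the set, were examined in 4 groups by role. Their list was drawn up with earlier results on these tumours known. A total of 44 reached 1 CPM in some tumour. Of these 22 (50%) were highest in T10, against 22% of all genes. T10 was at least 2-fold above every other tumour in 11 (25%), against 2.23% of all genes. Of the 38 that reached 1 CPM outside T10, 5 were 2-fold higher in T10 (13.2% against 1.16%). Their median centred log2 CPM was 0.81 in T10, while T14 had 0.36, T8 -0.45 and TUN -0.97. The goodness of fit in edgeR called 8 of 30 tested (26.7%), against 4.34% of all genes tested. The share called was higher for neuron (6 of 7 tested) and erythroid genes (2 of 3), from lists given below. So it was for mature oligodendrocyte (7 of 11) and astrocyte genes (5 of 8). It was lower for leptomeningeal fibroblast (2 of 9), ependymal (1 of 6), macrophage and microglia (1 of 7) and endothelial genes (0 of 10). T10 was the highest tumour for 3 of the 8 called choroid plexus genes and T14 for 4. Of all 619 called genes, 153 were highest in T10. Without T10 the fit called 3 of the other choroid plexus genes (Igf2, Slc4a10 and Sulf1). Of the 8, Igf2 was called whichever tumour was left out, and it alone was a dispersion outlier in DESeq2. Htr2c lost its call without T10, Car14 without T10 or TUN, and Spint2 whichever tumour was left out. Slc4a10 kept its call only without T10, Atp1b1 only without T14, and Sulf1 without T10 or TUN. With no filter on low counts, Atp1b1, Car14 and Spint2 were not called.

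Receptors and secreted factors held 6 of the 11 genes that were at least 2-fold higher in T10, of which Prlr and Calml4 reached 1 CPM in T10 alone. Htr2c, the serotonin 2C receptor that is abundant in choroid plexus and also made by neurons, reached 53.7 CPM in T10, while T14 had 7.63, T8 1.89 and TUN 1.88 (edgeR adjusted p = 1.26e-07). T10 was the highest by 7.03-fold and T8 and TUN were alike. Igf2, a growth factor of choroid plexus and meninges, stood at 65.6, 123, 11.5 and 2.10 CPM (edgeR adjusted p = 1.48e-10), with T14 above T8 and TUN as well. It shares 98 exon bases with the antisense gene Igf2os, which had 1 to 14 counts. The strand setting of the counting is not stated, so reads of a gene and of its antisense partner cannot be told apart where they overlap, here and below. The prolactin receptor gene Prlr (0.843, 6.11, 0.168 and 0.0447 CPM), the clotting factor gene F5 (23, 152, 24 and 4 counts) and Ace (13.6, 28.4, 7.42 and 4.69 CPM) were named after their values were seen, as were Abca4 and Calml4, which were also over 2-fold higher in T10. Sulf1 was highest in T14 at 51.2 CPM (edgeR adjusted p = 0.0166), and Igfbp2 held 236 ± 36.6 CPM (n = 4).

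Of the transport genes, 4 of the 16 at 1 CPM or more were at least 2-fold higher in T10, but 3 of the 4 (Kcne2, Kcnj13 and Tmem72) reached 1 CPM in T10 alone, so of these only Car12 remained when T10 did not set the minimum. Kcne2, a potassium channel subunit of the epithelium, had 5, 60, 7 and 1 counts in T14, T10, T8 and TUN. Tmem72 had 10, 104, 7 and 2 counts, and Kcnj13, a potassium channel gene that shares 623 exon bases with the antisense gene Gigyf2, had 14, 32, 0 and 0. The carbonic anhydrase gene Car12 stood at 2.13, 9.89, 1.47 and 1.16 CPM. These 4 genes were named after their values were seen, and for Kcnj13 the 2.10-fold difference from T14 rests on few counts. Car14, another carbonic anhydrase gene, was high in both T14 and T10, at 10.9, 16.4, 2.14 and 1.07 CPM (edgeR adjusted p = 0.0108). It shares 445 exon bases with the antisense gene Aph1a. Slc4a10 (edgeR adjusted p = 0.014) and Atp1b1 (edgeR adjusted p = 0.0338) were called too, both highest in T14, at 152 and 834 CPM, and both are also known from neurons. Slc12a2, the chloride cotransporter of the epithelium, was not called, at 237 ± 28.7 CPM (n = 4), and neither was Slc31a1, at 82.1 ± 9.78 CPM.

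Among transcription factors, none of the 7 at 1 CPM or more was 2-fold higher in T10. The share over all genes was 2.23%, so nothing is read from that count. Otx2, the homeodomain factor that choroid plexus needs, had 103 counts in T10, 93 in T14, 9 in T8 and 1 in TUN, so T14 held as much of it as T10 (4.13 and 4.19 CPM). It is also known from cerebellar granule cells. Lmx1a had 30 counts in T10, 28 in T14, 22 in T8 and 3 in TUN. Both were named after their values were seen. The label of the set was checked on these factors, and 2 that help to specify choroid plexus were about as high in T14 as in T10. Msx1 stood at 2.97, 4.15, 1.42 and 0.759 CPM, Foxj1, the factor of motile cilia, at 16.2, 11.2, 6.75 and 6.12 CPM, and Rfx4 at 53, 57.3, 90.6 and 51.1 CPM, none of them called. Msx2 was highest in T14, with 137 counts against 29 in T10. Otx2, Lmx1a and Msx2 were not tested because of their low counts. With no filter on low counts, Otx2 and Msx2 were called.

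Of 10 genes of epithelial junctions and keratins, 7 reached 1 CPM in some tumour and 3 in every tumour. Krt18, with 16, 46, 8 and 2 counts, was the 1 gene of 7 at 1 CPM or more that was 2-fold higher in T10, it reached 1 CPM there alone, and it was named after its values were seen. Spint2, a protease inhibitor, was called (edgeR adjusted p = 0.0294) and was high in T14 (13.4 CPM) and T10 (10.7) against 1.30 in T8 and 1.79 in TUN. Ocln stood at 19.1 CPM in T14 and 9.40 in T10, and Perp at 4.84 and 6.72. The epithelial adhesion gene Epcam had 8 counts in both T14 and T10, 14 in T8 and 24 in TUN. Cdh1, also on this list, ran the other way, with 136, 118, 8 and 14 counts in T14, T10, T8 and TUN. Epcam and Cdh1 were named after their values were seen.

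**Figure D4:**
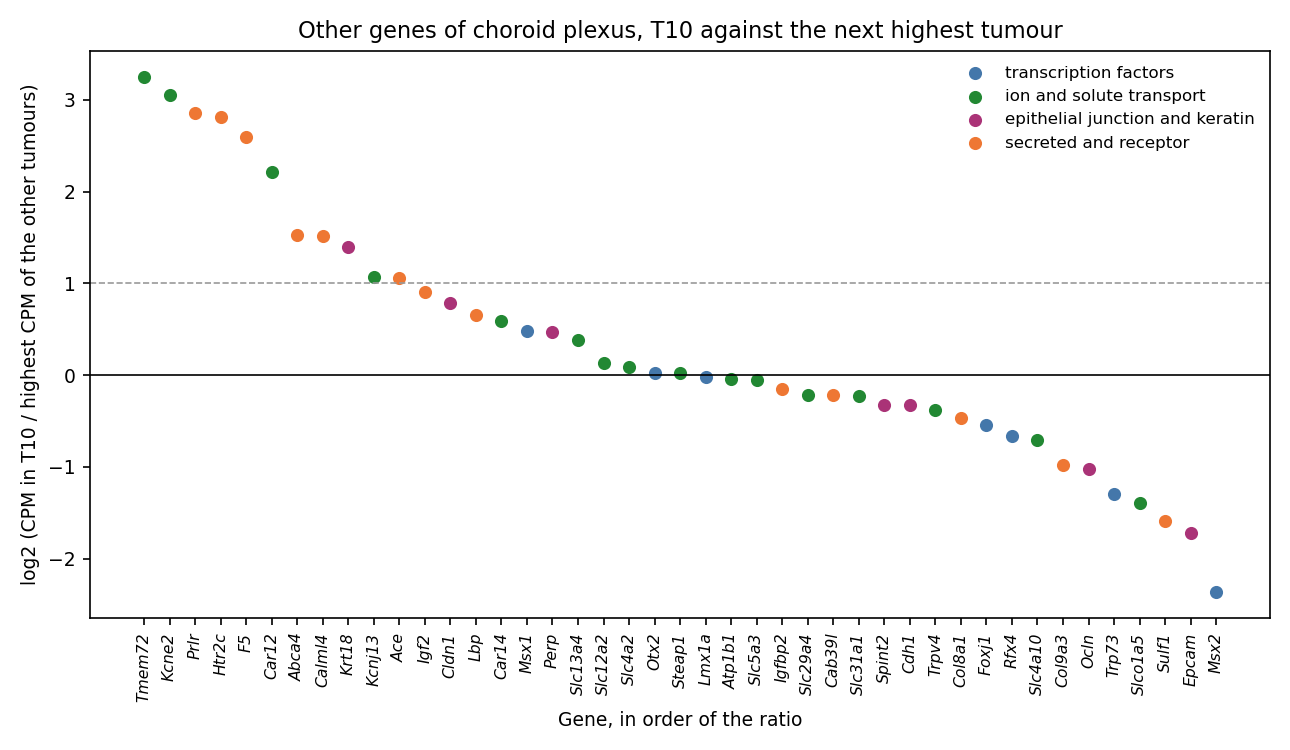
Each point is 1 of 43 of the 44 other choroid plexus genes at 1 CPM or more in some tumour, plotted as the log2 ratio of its CPM in T10 to the highest of the other 3 tumours, and coloured by role. The 11 genes above the dashed line are at least 2-fold higher in T10, with Tmem72, Kcne2, Prlr, Htr2c, F5 and Car12 in front. None of the 7 transcription factors is among them, and 2.23% of all genes show that difference, so nothing is read from their absence.

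Relatives of the 10 genes within their families included several that were far more abundant per length. Of the relatives at 1 CPM or more, none was 2-fold higher in T10 than in every other tumour. That difference was seen in 2.23% of all genes, so its absence here is not read as a result. Among water channels, Aqp4, the channel of astrocyte endfeet, stood at 56.7 ± 35.5 RPKM against 0.794 ± 0.56 for Aqp1 (n = 4). Aqp4 fell from 502 CPM in T14 to 370 in T10, 165 in T8 and 115 in TUN, without a call. Aqp6 was high in T14 alone, at 31.6 CPM. Cldn2 was the lowest of the claudins named, at 0.267 ± 0.398 RPKM, below Cldn11 of myelin (69.2 ± 14), Cldn5 of endothelium (43.7 ± 10.1), Cldn12 (19.3 ± 2.88), Cldn10 (3.91 ± 3.51) and Cldn1 (0.492 ± 0.289). Cldn1 was also highest in T10, at 2.89 CPM against 1.68 in T8.

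The bicarbonate transporter Slc4a5, at 0.448 ± 0.548 RPKM, stood below Slc4a4 (17.3 ± 17), Slc4a10 (12.1 ± 8.92), Slc4a7 (8.68 ± 2.05), Slc4a3 (8.39 ± 2.87), Slc4a8 (5.62 ± 1.61) and Slc4a2 (4.70 ± 1.07; n = 4 for each). Slc4a4, known from astrocytes, was called (edgeR adjusted p = 1.05e-06), with 247 CPM in T10, while T14 had 420, T8 37.2 and TUN 42.2. Clic6, at 1.85 ± 1.66 RPKM, stood below Clic1 (94.4 ± 29.3), Clic4 (44.7 ± 2.19) and Clic5 (23.3 ± 8.92). Enpp2 was the exception. At 127 ± 53.8 RPKM it led its family, ahead of Enpp5 (29.9 ± 14.2), Enpp4 (7.88 ± 1.76), Enpp3 (3.76 ± 1.15), Enpp1 (3.10 ± 0.606) and Enpp6 (1.23 ± 0.568).

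Of 28 genes listed as partners of the 10 genes in transport and signalling, 24 reached 1 CPM in some tumour. Among these 0 were 2-fold higher in T10, against 2.23% of all genes, and nothing is read from that count. For folate, the transporter genes Slc46a1 (18.2 ± 3.27 CPM) and Slc19a1 (26.2 ± 3.07 CPM) were not called (n = 4). Of the FGF receptor genes listed beside klotho, Fgfr1 stood at 173, 162, 127 and 142 CPM in T14, T10, T8 and TUN. Fgfr3 stood at 69, 77.5, 22 and 17.2 CPM without a call. Fgfr2 was called (edgeR adjusted p = 0.0012), at 49.6, 37.1, 9.26 and 4.33 CPM. Among receptors of lysophosphatidic acid, the product of autotaxin, Lpar1 was called (edgeR adjusted p = 0.0183), at 30.9, 29.5, 6.33 and 4.15 CPM. In Fgfr2 and Lpar1, T14 and T10 were the high tumours. Fgfr2 lost its call without TUN, and Lpar1 without T10, without TUN or with no filter on low counts. Dio2, which activates thyroxine, was highest in T14 at 45 CPM (edgeR adjusted p = 0.00127, a call lost without T14), and Rbp4, whose protein transthyretin binds, stood at 5.46, 5.70, 0.796 and 0.759 CPM without a call. The co-receptor gene Lrp6, with which Sostdc1 is known to interact, held 123 ± 15 CPM.

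Markers of other brain cell types also differed between tumours, mostly with T14 and T10 above T8 and TUN. The 11 mature oligodendrocyte genes summed to 5715 CPM in T10, while T14 had 4314, T8 1522 and TUN 1588, and 9 of them were highest in T10 (22% of all genes were), with Cldn11 and Ugt8a highest in TUN. The edgeR goodness of fit called 7 of the 11, against 4.34% of all genes tested. The 15 leptomeningeal fibroblast genes summed to 910, 1019, 299 and 392 CPM, with 8 highest in T10 and 2 of 9 tested called by the same fit (Ptgds and Aldh1a2). T10 was 2-fold above every other tumour in 1 of the 11 oligodendrocyte genes (Opalin) and 0 of the 15 fibroblast genes. Over all genes the share was 2.23%.

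The 13 ependymal genes, of the ciliated lining next to the plexus, summed to 90.5, 52.7, 26.6 and 35.3 CPM. Of the 9 at 1 CPM or more, 6 were highest in T14 and 3 in T10. Over all 15035 genes, 4506 were highest in T14 and 22% in T10. None of the 9 was 2-fold higher in T10, against 2.23% of all genes, and nothing is read from these counts. Neuron (2758, 2007, 263 and 311 CPM) and astrocyte genes (7059, 4505, 2196 and 2104 CPM) were both highest in T14, and so were erythroid genes (81.8, 11.5, 10.2 and 5 CPM). The 10 endothelial genes summed to 432, 352, 401 and 368 CPM and none was highest in T10 (22% of all genes were). The 7 macrophage and microglia genes were highest in TUN in sum (655, 472, 760 and 1474 CPM). None of these lists had a gene at 0 in all 4 tumours. Whether the amount of other tissue in each library bears on the levels of the 10 genes was not tested.

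A further 2 lists served as a check on other organs that make some of the 10 proteins. The 8 liver and kidney genes summed to 0.754 to 1.12 CPM, and Serpina1a, Umod and Slc34a1 had 0 counts in every tumour, while Ttr is also a liver gene and Kl a kidney gene. Alb, the albumin gene, had 1 count in TUN and 0 in T14, T10 and T8. The most abundant of the list was Apoa2, with 9, 4, 11 and 16 counts in T14, T10, T8 and TUN. Nphs1 followed with 7, 12, 0 and 1 counts, and Apoa1 with 4, 6, 1 and 4. Of the retinal pigment epithelium genes, Rpe65 had 1 to 9 counts and Tyr 0 or 1, whereas Rlbp1, which glia also make, and Pmel were above 1 CPM in every tumour.

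**Figure D5:**
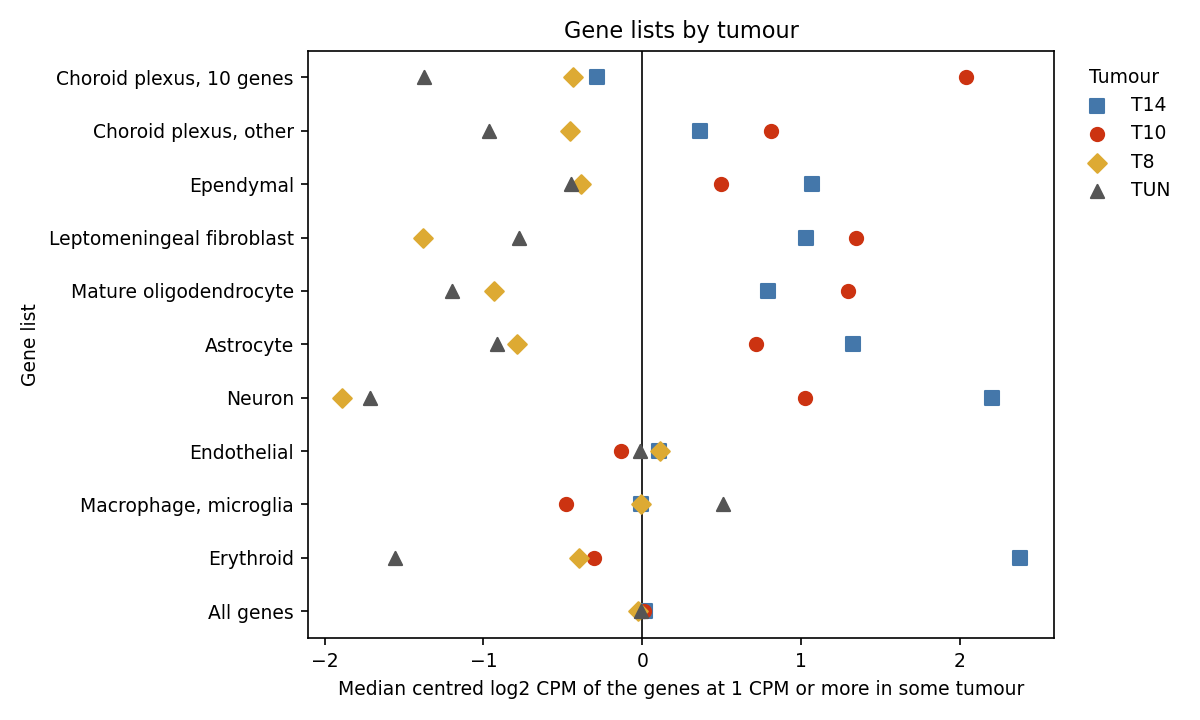
Each point is the median over the genes of a list, at 1 CPM or more in some tumour, of log2 CPM centred on each gene's 4-tumour mean. The 10 genes chosen for T10 place it at 2.04 and the other tumours below 0, while the other choroid plexus genes place both T14 (0.36) and T10 (0.81) above 0, as the oligodendrocyte, fibroblast, astrocyte, neuron and ependymal lists do.

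The genes whose profile lay closest to the median profile of the 10 were sought among the 14282 other genes with a mean of 1 CPM or more, as the Euclidean distance of centred log2 CPM over the 4 tumours. In order they were Fgf10 (distance 0.17), Asb16 (0.23), Doc2a (0.35), Oprd1 (0.36), Pcdhga3 (0.39), Car12 (0.46), Cpne4 (0.47), Vwc2l (0.49), A2ml1 (0.50) and Evpl (0.52). Each was highest in T10, by 3.39-fold to 7.27-fold over the next tumour. Fgf10, a growth factor gene, stood at 0.710, 4.11, 0.754 and 0.313 CPM in T14, T10, T8 and TUN, and Asb16 at 1.29, 7.08, 0.964 and 0.536. Car12 is the 1 gene of the 10 that also stood on the choroid plexus list. Pcdhga3 is part of the protocadherin gamma cluster, whose genes share exons, so its counts are uncertain. The members themselves lay at distances of 0.91 (Clic6) to 2.85 (Ttr) from their own median, farther than any of these genes, and the likeness is given as a description over 4 libraries.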

How the data were processed

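PolyA RNA of 4 tumours was sequenced, and the authors deposited 1 table of raw counts per gene with a column of gene length (merged exon length, from the values). STAR, featureCounts and mm10 are named per the submitters' processing notes. Tool versions, strand setting and treatment of multimapping reads are not stated in what was used here. GENCODE vM8 is named with the table. Symbols were matched to identifiers for 46451 of 46946 genes, and 0 sample columns were set aside.

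From the counts, CPM used TMM factors (edgeR 4.0.16, R 4.3.3), and RPKM divided CPM by length in kilobases. Log2 CPM used a prior count of 2. Variation between tumours was tested by edgeR goodness of fit at the trended dispersion after filterByExpr, with adjusted p under 0.05. The test was also run on simulated data with the same dispersion for all genes, so that run cannot give its rate of false calls here. No comparison between groups was possible with 1 group.

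The members and lists were chosen with earlier results of these data known. Named genes were the 10 members, of each list the 3 of highest mean CPM and up to 4 called, of each family up to 6 by mean RPKM, and the 10 nearest profiles. Other named genes, partners included, were chosen after their values were seen. RLE factors, dispersion outliers in DESeq2 1.42.0, no filter, another prior count and leaving out each tumour were tried as alternatives. The result of 1 called gene of the other choroid plexus list is not reported here.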

Additional observations from a re-analysis of the deposited data

Results flagged for a closer look

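In a group of 4 tumours, a value was singled out when 1 tumour's gap to its nearest neighbour, as a share of the whole range, exceeded the 95% critical value of Dixon's test, which chance passes in about 1 of 20 groups. Of the 10 choroid plexus genes 5 did so, all by T10, with Ttr at 579 CPM, Kl at 17.6, 1500015O10Rik at 5.70, Folr1 at 3.38 and Cldn2 at 2.85. These genes were chosen for their T10 level, so their number is not evidence. A further 76 genes were examined, which the naming rule had taken from the lists and families as the most abundant or as called. Of these 7 did so, and their number is not evidence either. Listed genes outside the 76, such as Tmem72 and Kcne2, were not examined in this way. Among the 7, Htr2c stood apart by T10, at 53.7 CPM, and Rfx4 by T8, at 90.6 CPM. T14 stood apart for the astrocyte glutamate transporter gene Slc1a3 (1512 CPM), the water channel gene Aqp6 (31.6 CPM) and the globin genes Hbb-bs (56.5 CPM), Hba-a1 (11.9 CPM) and Hba-a2 (6.84 CPM). Among the 10 genes closest in profile to the set, which were picked by that profile, 7 stood apart by T10. They were Pcdhga3 at 36.4 CPM, Car12 at 9.89, Cpne4 at 8.39, Asb16 at 7.08, Vwc2l at 5.17, Fgf10 at 4.11 and Doc2a at 3.79.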

How the results depend on the processing

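DESeq2 was used to flag dispersion outliers, a measure unlike the edgeR goodness of fit. It flagged 78 of all genes, where edgeR called 619. Of the other choroid plexus genes it flagged 1, where edgeR called 8. With no filter on low counts, 713 of 25961 genes were called, 11 of them other choroid plexus genes. Atp1b1, Car14 and Spint2 lost their calls there. Otx2, Msx2, Prlr, Tmem72, Kcnj13 and Slc13a4, not tested with the filter, gained one. Of the 10 genes, 1 was called, 2 with no filter on low counts, and 1 to 2 when each tumour was left out in turn. Leaving out each tumour gave 3 to 6 calls of other choroid plexus genes (3 without T10). With each tumour left out in turn, the median centred log2 CPM of the 10 genes ran from -0.467 to 0.398 in T14 and -0.993 to 0.130 in T8. The highest value in both came without T10, where centring on the remaining tumours turned the sign. In the same runs it went from 1.47 to 2.03 in T10 and from -1.57 to -0.493 in TUN (-0.493 without T10). In T10 it was 1.64 without Ttr and 2.43 without Enpp2, against 2.04 in the main setting. In TUN it was -1.61 and -1.10 with prior counts of 0.5 and 5. Over the 6 genes kept by the low-count filter it was 1.43 in T10 and -0.321 in TUN. Alternatives chosen after seeing the data were the minimum of 1 CPM outside T10, other scalings and tumours left out for the 2-fold count, and subsets of the 10 genes. With that minimum, 5 other choroid plexus genes in place of 11 were 2-fold higher in T10, since fewer genes enter. Leaving out a tumour gave 11 to 24 (24 without T14, which is then no longer compared). Of the 10 genes, 2 kept their rank by mean level in CPM in place of RPKM. No paired analysis was possible because the tumours form 1 group, and the numbers in the sample titles could not be matched to the columns. Values of 3 counts or fewer, in Folr1, Slc4a5 and Cldn2, limit the ratios against those tumours.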
